A study of Arabidopsis thaliana with 9 samples.

Results

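The comparison is between Arabidopsis thaliana shoots that had spent 60 s under high light and shoots left at growth light (0 s). Accession Col-0 was raised for 21 days at 23 °C, with the light kept constant and low (50 µmol m-2 s-1), and then put under 1000 µmol m-2 s-1 at 21 °C. Both groups are wild type, and the 0 s plants differ from the 60 s plants in the labels only by the length of the exposure. Pots were frozen in liquid nitrogen, and 3 pools of at least 30 plants were made per exposure, 6 samples for the 2 groups out of 9 in the series. The labels call the tissue shoot and the series' design text calls it leaves. The table analysed gives each gene a single FPKM at each exposure (mapped fragments per transcript length and sequencing effort) and no level for any 1 pool. The differences below therefore lack a replicate check and could not be tested, and read depth is unknown. Whether less RNA per cell or fewer cells of a type underlie a lower value cannot be told apart in such bulk samples. Of 33473 listed genes, the 13946 that averaged 5 FPKM or more across all 3 exposures (0, 20 and 60 s) were compared, by log2((FPKM at 60 s + 1)/(FPKM at 0 s + 1)), and every fold and log2 ratio below is on that scale.

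Leaves moved from weak to strong light absorb more energy than they can use at once, and pathways for photoprotection, reactive oxygen, hormones and sugar status are known to respond. Plant cells sense carbon and energy shortage through the kinase SnRK1, which is known to raise transcripts of the dark-inducible and sugar-repressed class, such as ASN1, DIN10 and SEN1. Iron supply is watched separately, by small IMA peptides and transcription factors of the bHLH class that are known to be high when iron is short.

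Among the gene lists examined, those of kelch F-box proteins, BTB-TAZ proteins, starvation markers and class II trehalose-6-phosphate synthases, all linked to sugar and energy status, had the highest medians at 60 s against 0 s, and those of defensin, iron deficiency and salicylic acid genes the lowest. The lists were chosen with earlier results of these data known, so their order is a description. The kelch gene KFB39 and all tested defensins but PDF1.2 passed the level limit only through the exposures where they were higher. The ranks of those 2 lists are therefore no support for a direction. The starvation markers SEN1, ASN1 and AGT3, each under 5 FPKM at 0 s, likewise passed only through the later exposures. Of the 4 kelch genes, 2 are in the restricted set described below. Of the 13946 genes, 75 (0.538%) were higher by 2-fold or more and 26 (0.186%) lower by as much. At a limit of 1.5-fold, 235 (1.69%) were higher and 59 (0.423%) lower. Most of these genes were outside the lists just named. With the YGL-LRDR proteins, these 5 energy and sugar status lists held 21 of the 235 genes higher at 1.5-fold and 17 of the 75 at 2-fold, and the defensin, salicylic acid and iron deficiency lists held 8 of the 59 genes lower at 1.5-fold. The 5 energy and sugar lists had 33 tested members and the 3 other lists 39. The 21 and the 17 include KFB39, SEN1 and ASN1, whose part in these counts is no support for a direction. Of the 8, 5 were the tested defensins, so this count too is no support for a direction. By any amount, 7613 genes (54.6%) were higher and 6327 (45.4%) lower. The median log2 ratio of all tested genes was 0.01, the quartiles were -0.07 and 0.11, and the central 95% from -0.32 to 0.49.

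Part of these counts comes from genes whose values are hard to read. Of the 75 genes higher, 13 were listed at 0 at an exposure, 16 had a locus under 300 bp, 6 overlapped another gene and 11 were not protein-coding or not in the reference annotation. Of the 26 genes lower, those numbers were 11, 15, 4 and 6. A restricted set of 11529 genes was therefore formed, protein-coding, never listed at 0, and on a locus no shorter than 300 bp that overlapped no other. In it 49 (0.425%) were higher by 2-fold or more and 6 (0.052%) lower. At 1.5-fold, 183 (1.59%) were higher and 33 (0.286%) lower, and by any amount 6311 (54.7%) and 5218 (45.3%). The genes called highest and lowest below are ranked in that set. Just inside the 2-fold limit there stood AT2G24550 (32.5 FPKM at 0 s, 66.1 at 20 s and 66.1 at 60 s) on the higher side and the defensin PDF1.2b (6.91, 6.15 and 2.79 FPKM) on the lower side. Just outside it stood PMT6, a polyol and monosaccharide transporter, at 4.75, 11.7 and 10.4 FPKM, and the immunity gene NIMIN-2, whose log2 ratio was -0.99.

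**Figure D1:**
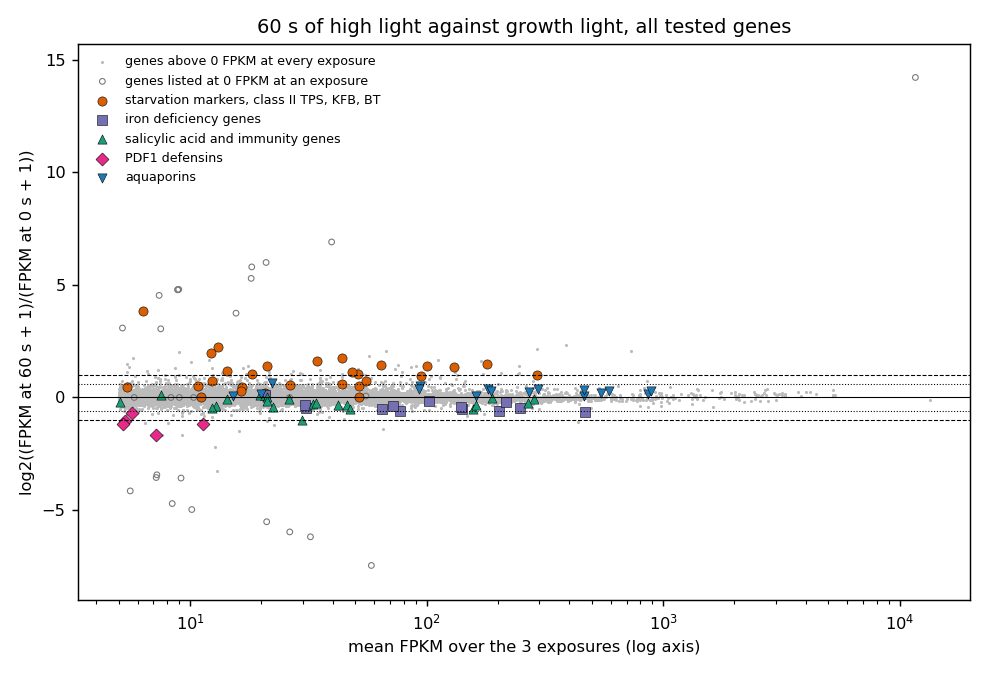
The log2 ratio of 60 s to 0 s (vertical axis) is drawn against the mean FPKM over 3 exposures (horizontal log axis) for all 13946 tested genes, with dashed lines at 2-fold, dotted lines at 1.5-fold, open circles for genes listed at 0 at an exposure and coloured marks for 5 groups of genes. Most genes lie near 0, the orange marks lie at or above 0, the iron deficiency and defensin marks lie mostly below it, the circle at the upper right is LHCB1.3, and the highest orange mark is KFB39, which was listed at 0 FPKM at 0 s.

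Genes at least 1.5-fold higher were found at every level of expression. In the restricted set they made up 1.41% of the 2616 genes with a mean of 5 to 10 FPKM and 2.097% of the 1860 genes between 50 and 200 FPKM. Genes at least 1.5-fold lower made up 0.573% of the lowest class and 0.108% of the class from 50 to 200 FPKM. The 183 genes higher had a median level of 15.1 FPKM at 0 s, against 19.1 FPKM over the whole set. Their median exonic length was 1523 bases, against 1836 bases over the set, and the 33 genes lower had a median of 1142 bases. The median GC content was 39.5% in the higher genes, 37.8% in the lower genes and 41.1% in the set.

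**Figure D2:**
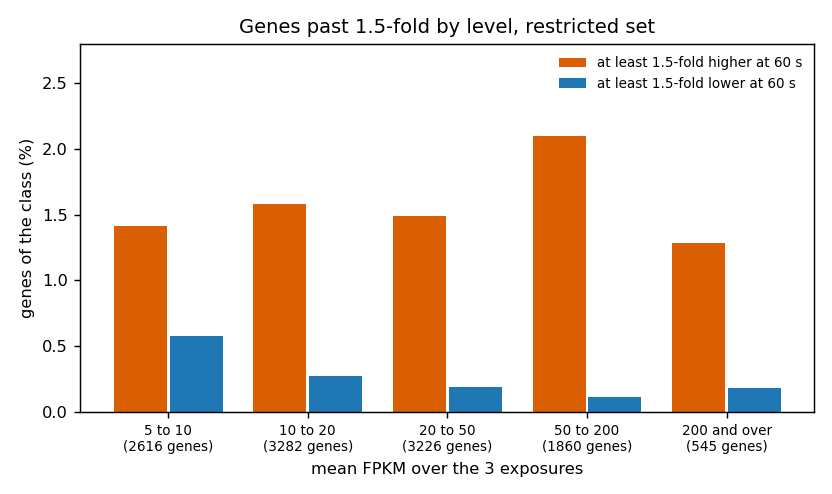
Bars give the percentage of genes (vertical axis, from 0) at least 1.5-fold higher (orange) or lower (blue) at 60 s in 5 classes of mean FPKM (horizontal axis) of the restricted set. The higher share lies between 1.28% and 2.097% in every class, and the lower share is largest, at 0.573%, among genes of 5 to 10 FPKM.

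Over the table as a whole, the FPKM values summed to 817000 at 0 s and 858218 at 60 s, or 839228 at 60 s without LHCB1.3, a light-harvesting gene listed at 0 FPKM at 0 s. The 4 ribosomal RNA genes listed summed to 136 FPKM at 0 s, 1504 at 20 s and 570 at 60 s. They were thus higher at 60 s than at 0 s, and their part in the results below was not tested. All 279 organelle genes were listed at 0. The labelled tissue was set against marker lists. The 5 mesophyll markers were all tested and summed to 22187 FPKM at 0 s and 22192 at 60 s. Of 11 root markers, 3 passed the level limit, their sum was 80.6 FPKM at 0 s and 94.0 at 60 s, and most of it was PYK10, a root beta-glucosidase, at 51.1 and 66.7 FPKM, while the root-hair expansin EXPA7 was listed at 0 throughout. Of 6 flower markers, 0 passed the limit, and they summed to 1.36 and 1.49 FPKM. Epidermis markers (median log2 ratio -0.01, sum 336 and 337 FPKM) and vasculature markers (0.06, sum 151 and 158 FPKM) were at like levels at both exposures. The 11 reference genes had a median of 0.05, from EF1A at 931 and 861 FPKM to the actin gene ACT8 at 125 and 141 FPKM.

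Genes of sugar and energy shortage stood highest. Of 15 markers of dark and sugar starvation listed, 13 passed the level limit, all 13 were higher at 60 s, 8 by at least 1.5-fold, and the median log2 ratio was 1.01. The 13 and the median include SEN1, ASN1 and AGT3 (4.35, 5.50 and 6.35 FPKM), which were under 5 FPKM at 0 s. These genes passed the limit only through the later exposures, so their ratios are no support for a direction of the list. GH3.3 (2.60 and 3.33 FPKM) and SWEET15 (0.112 and 0.0807 FPKM) were under the limit. SEN1, a senescence and dark-induced gene, had the highest ratio, at 4.01, 12.6 and 22.7 FPKM (4.74-fold). For ASN1, an asparagine synthetase, the 3 levels were 4.15, 13.5 and 19.1 FPKM. DIN10, a raffinose synthase family gene first found in darkened leaves, was at 44.0 FPKM at 0 s, 139 at 20 s and 117 at 60 s, 2.63-fold higher at 60 s. The dormancy-associated gene DRM1 (also DYL1) was at 73.2, 129 and 189 FPKM, and its relative DRM2 at 204, 264 and 412 FPKM, so both were higher at each later exposure. RZPF34 (AT5G22920), a zinc finger protein of the CHY and RING type, stood at 30.0, 79.2 and 83.6 FPKM. BGAL4, a beta-galactosidase, stood at 8.13, 15.1 and 19.9 FPKM. These 2 genes had most of their distance from 0 s already at 20 s. In 5 members the 20 s level was above the 60 s level. They were DIN10, PRODH1, the proline dehydrogenase that starts proline breakdown (9.52, 26.5 and 13.5 FPKM), SIP2 (33.0, 77.4 and 55.4 FPKM), EXL2 (17.41, 35.5 and 26.1 FPKM) and GDH2. GDH2, a glutamate dehydrogenase subunit, had the smallest ratio of the tested members, at 17.0, 25.5 and 19.9 FPKM.

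Upstream sequences of 6 of the 30 highest genes are shown as examples of how short motifs, known from sugar-repressed and light-regulated promoters, lie there. The 6 windows of 100 bases, from the 500 bases before the annotated start, were picked for holding the most motif kinds and then matches among windows that lie in no other annotated gene, which left out ASN1. Of the 6 genes, DIN10, TPS11 and AT4G27450 belong to the energy and sugar lists. Of the 30 genes, 23 had at least 1 of the 4 motifs somewhere in the 500 bases. Bases are from the RefSeq TAIR10.1 assembly, 5′ to 3′ on the strand of the gene, and capitals mark matches on either strand to ACGTG, the core of the G-box and of abscisic acid elements, to TATCCA, known from sugar-repressed promoters, to GATAAG, an I-box of light-regulated promoters, or to AAAATATCT, the evening element. Matches on the other strand read as CACGT, as TGGATA or as CTTATC, matches that touch or overlap run together, and the last 4 bases of TGGATA can begin GATAAG. DIN10 lies at chr5:6833110-6833209 on the plus strand, LTP4 (a lipid transfer protein) at chr5:23926272-23926371 on the minus strand, and AT5G19120 (an aspartyl protease) at chr5:6414266-6414365 on the plus strand. AT4G27450 (a YGL-LRDR motif protein) lies at chr4:13729273-13729372 on the minus strand, TPS11 at chr2:8108443-8108542 on the plus strand and PP2-A13 (a phloem protein homolog) at chr3:22602486-22602585 on the plus strand.
DIN10: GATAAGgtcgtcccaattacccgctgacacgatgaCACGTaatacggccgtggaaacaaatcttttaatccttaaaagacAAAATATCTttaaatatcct
LTP4: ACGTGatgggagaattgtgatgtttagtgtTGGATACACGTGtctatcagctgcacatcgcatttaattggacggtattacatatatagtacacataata
AT5G19120: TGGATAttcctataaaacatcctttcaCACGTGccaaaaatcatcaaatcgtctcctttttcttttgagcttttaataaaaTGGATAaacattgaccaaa
AT4G27450: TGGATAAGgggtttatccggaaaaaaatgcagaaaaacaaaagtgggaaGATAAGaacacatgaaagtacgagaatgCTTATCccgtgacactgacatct
TPS11: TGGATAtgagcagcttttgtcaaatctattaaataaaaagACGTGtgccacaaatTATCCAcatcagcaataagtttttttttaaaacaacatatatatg
PP2-A13: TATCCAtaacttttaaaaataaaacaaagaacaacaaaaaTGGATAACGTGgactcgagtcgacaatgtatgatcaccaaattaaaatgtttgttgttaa

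Across the comparison, 18 motifs were searched on both strands in those 500 bases, and the 4 shown were chosen after the shares had been seen. TATCCA was found upstream of 38.9% of the 221 genes at least 1.5-fold higher that had a sequence, 14.0% of the 50 genes at least 1.5-fold lower, 26.5% of 13730 tested genes and 25.6% of all 26626 promoters. GATAAG was found upstream of 40.3% of the genes higher, 36.0% of those lower and 22.4% of all promoters. ACGTG was found upstream of 49.8% of the genes higher, 48.0% of those lower and 35.7% of all promoters, so for GATAAG and ACGTG the shares of both directions lay above the background. AAAATATCT was found upstream of 9.50%, 2.00% and 4.47%. Among the others, GCCGCC, the box bound by ethylene response factors, was found upstream of 2.26% of the genes higher, 12.0% of those lower and 4.11% of all promoters. TGGGCC, known from promoters of ribosomal and cell division genes, was at 14.5%, 16.0% and 18.0%, and at 22.4% of the tested genes. Lists differed. TATCCA was present in 7 of 13 starvation markers, 6 of 7 class II trehalose-6-phosphate synthases, 2 of 4 BTB-TAZ, 1 of 4 kelch F-box and 3 of 5 YGL-LRDR genes, and in 1 of 13 iron deficiency genes. ACGTG was present in 6, 3, 2, 0 and 3 of those energy genes in the same order, and in 9 of 13 iron deficiency and 5 of 21 salicylic acid genes. A match is only a description of the letters in that window.

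Class II trehalose-6-phosphate synthases are proteins related to the enzyme that makes the sugar signal trehalose-6-phosphate. All 7 were higher at 60 s, 4 of them by at least 1.5-fold, with a median log2 ratio of 0.71. Besides TPS11, at 15.4, 38.0 and 49.3 FPKM, TPS8 stood at 30.3, 60.3 and 63.8 FPKM. TPS9 stood at 11.0, 20.3 and 23.6 FPKM and TPS10 at 8.45, 14.1 and 14.5 FPKM. In contrast to those 4 genes, TPS5 (11.6 and 11.9 FPKM) and TPS7 (49.4 and 50.3 FPKM) were nearly the same at 0 s and 60 s. The trehalose-6-phosphate phosphatases, which remove the phosphate, did not share the direction, with 1 of 5 tested members higher and a median of -0.13. TPPE was at 13.6 and 11.3 FPKM and TPPH at 9.68 and 12.6 FPKM.

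Small regulatory families linked to nutrient and sugar status were also higher. Of 5 BTB-TAZ proteins, adaptors that respond to nitrate and sugar, BT3 (3.74 and 4.37 FPKM) was under the level limit and the other 4 were at least 1.5-fold higher, with a median log2 ratio of 1.27. BT2 stood at 87.1, 208 and 246 FPKM and BT1 at 30.4, 46.1 and 68.3 FPKM. BT4 was highest at 20 s, with 27.0, 63.6 and 41.2 FPKM, and BT5, whose locus overlaps another gene, was at 9.49, 27.3 and 26.7 FPKM. Of 4 kelch F-box proteins, which mark enzymes of phenylpropanoid synthesis for breakdown, all were higher and 3 by at least 1.5-fold. KFB20 (AT1G80440) stood at 18.6, 49.1 and 64.0 FPKM. KFB50, whose locus overlaps another gene, stood at 64.1, 96.3 and 124 FPKM. KFB01 was at 6.95, 15.2 and 10.2 FPKM, and KFB39 was listed at 0 at 0 s, with 5.54 and 13.3 FPKM later, on a locus that overlaps another gene. KFB39 thus passed the level limit only through the later exposures, and its ratio is no support for a direction of the family. Of 5 proteins with YGL and LRDR motifs, 4 were higher, and the members differed widely. AT3G15450, on an overlapping locus, stood at 94.6, 359 and 423 FPKM, and AT4G27450 at 21.2, 42.6 and 67.9 FPKM, while AILP1 was at 381, 434 and 484 FPKM and AT3G22850 at 25.6, 27.5 and 24.8 FPKM.

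**Figure D3:**
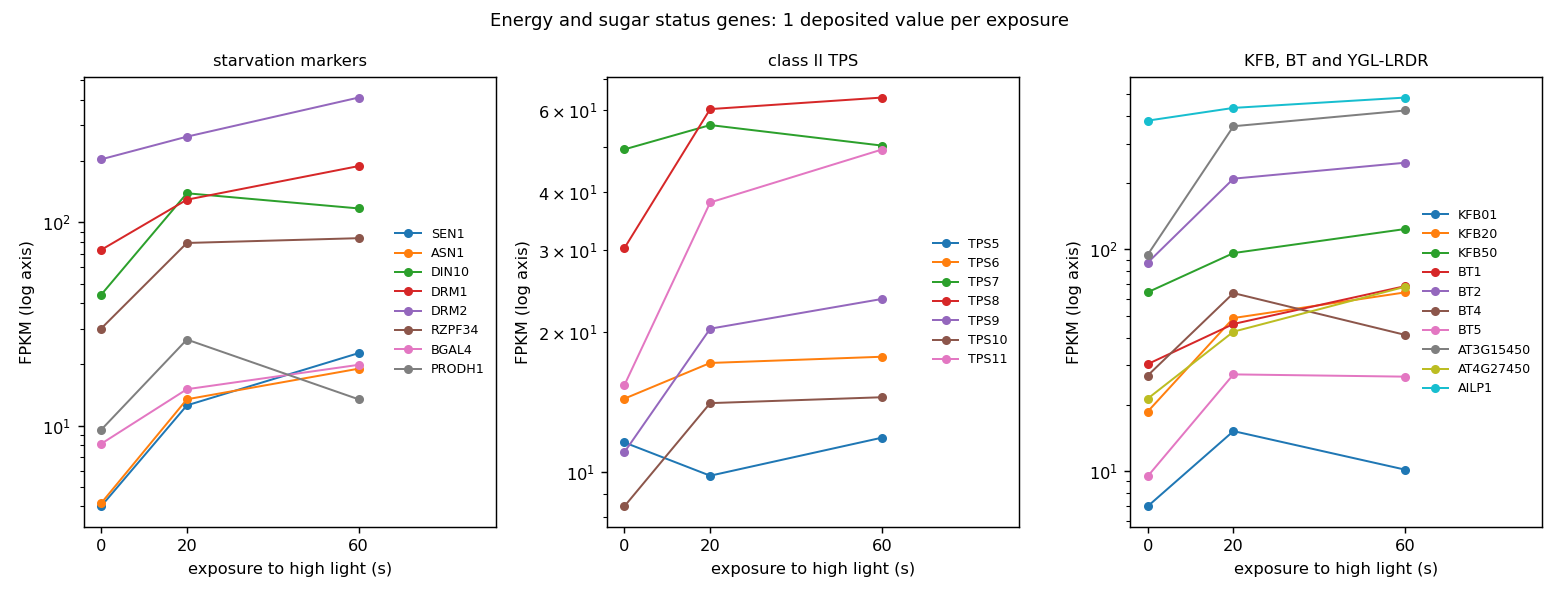
FPKM (vertical log axis) at 0, 20 and 60 s of high light (horizontal axis, seconds) is drawn for starvation markers, class II trehalose-6-phosphate synthases (TPS), and kelch F-box (KFB), BTB-TAZ (BT) and YGL-LRDR genes, with 1 deposited value per point and no error. Most lines are higher at 60 s than at 0 s, whereas TPS5 and TPS7 end near their start, and DIN10, PRODH1, BT4 and KFB01 are among the lines that peak at 20 s.

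Other parts of carbon and energy metabolism were less far apart. For the counts that follow, the share of all tested genes higher by any amount was 54.6%. Among 6 SnRK1 subunits, 3 were higher and 3 lower, and AKINBETA1, a regulatory subunit, stood apart at 24.6, 36.6 and 45.0 FPKM, next to the catalytic KIN10 at 24.8 and 25.3 FPKM. Among 6 bZIP factors of groups S1 and C, bZIP63, a known SnRK1 target, was at 31.0, 45.7 and 49.2 FPKM and bZIP11 at 22.8 and 19.5 FPKM, and the median was 0.06. All 9 ATG8 genes, whose proteins coat autophagosomes, were higher by any amount, with a median of 0.24, and ATG8E was the 1 past 1.5-fold, at 70.1, 110 and 114 FPKM. All 7 tested enzymes of branched-chain amino acid breakdown were also higher (median 0.23), led by MCCA, a subunit of methylcrotonyl-CoA carboxylase, at 9.83 and 15.2 FPKM. Of 12 sugar transporters, 10 were higher and 2 by at least 1.5-fold, STP1, a glucose importer, at 70.7, 138 and 131 FPKM and STP14, a galactose importer, at 9.57, 14.1 and 16.9 FPKM. Starch enzymes lay close to all genes, with medians of 0.11 over 15 breakdown enzymes and 0.00 over 10 synthesis enzymes. The furthest of the first were BAM4 (9.03 and 11.2 FPKM) and BAM1 (36.2 and 43.5 FPKM), of the beta-amylase family.

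Beyond those lists, the 30 highest genes held enzymes and regulators of several kinds. Like SEN1 and ASN1, the genes LTP4, NATA1, RD26, AT4G36850, AT3G07350, SIS, AT2G29300 and AT1G23050 were under 5 FPKM at 0 s. They passed the level limit only through the later exposures, so their place among the 30 is no support for a direction. BXL1, a beta-xylosidase of the cell wall, stood at 34.8, 95.1 and 97.5 FPKM, 2.75-fold higher at 60 s. FSD1, the iron superoxide dismutase of the chloroplast, was at 9.45, 16.7 and 26.6 FPKM, 2.64-fold higher. The other 7 genes of the superoxide dismutase and copper chaperone list lay between log2 ratios of -0.17 (FSD3, 41.4 and 36.7 FPKM) and 0.15 (CSD3, 41.8 and 46.7 FPKM), so FSD1 stood alone there. ATCTH, a CCCH zinc finger protein, was at 41.5, 77.0 and 101 FPKM. RAV2, a repressor of flowering also named TEM2, stood at 14.6, 33.1 and 34.1 FPKM. SIS, a salt-induced serine-rich protein, was at 3.03, 4.296 and 9.24 FPKM and PP2-A13 at 13.8, 19.6 and 31.5 FPKM, and these 2 had their larger step between 20 s and 60 s. Of CAT1, CAT2 and CAT3, which break down hydrogen peroxide, CAT3 was furthest apart at 639, 859 and 1057 FPKM, while CAT2 was at 594 and 666 FPKM. All 7 tested catalases and ascorbate peroxidases were higher by any amount, with a median of 0.15. RD26, a NAC factor induced by abscisic acid and drought, was at 4.63, 14.8 and 16.8 FPKM, and NATA1, an acetyltransferase induced by jasmonate, at 0.941, 10.6 and 5.62 FPKM. LTP4 stood at 3.41, 6.76 and 16.7 FPKM. AT5G19120 was at 21.3, 70.9 and 78.7 FPKM. AT2G20670, of unknown role, had the second highest ratio (22.8, 80.9 and 97.4 FPKM), and the membrane protein AT4G36850 was at 3.69, 13.9 and 12.8 FPKM. Also of the 30 are AT3G07350 (2.17, 6.10 and 7.93 FPKM), AT2G27830 (8.88, 18.0 and 23.4 FPKM), the oxidoreductase-like AT2G29300 (4.90, 7.56 and 13.4 FPKM) and the glycoprotein AT1G23050 (3.78, 8.16 and 10.06 FPKM). The other genes of the 30 not given elsewhere are AT3G10020 (45.4, 104 and 122 FPKM), AT5G65207 (24.7, 60.7 and 59.4 FPKM) and AT3G15630 (42.2, 98.9 and 94.97 FPKM), whose roles the annotation does not give.

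More of the tested nitrogen and sulfur genes were higher than lower. The same holds for all tested genes, of which 54.6% were higher by any amount and 1.69% by at least 1.5-fold. Of 11 tested genes of nitrate uptake and use, 9 were higher, 3 by at least 1.5-fold, and the median log2 ratio was 0.50. UPM1, which makes the siroheme cofactor of nitrite reductase, was at 44.3, 64.2 and 72.9 FPKM, and NIA1, a nitrate reductase, at 43.1, 78.6 and 70.9 FPKM. The repressors LBD37, LBD38 and LBD39, which dampen nitrogen-responsive genes, stood at 57.6 and 82.0, at 16.7 and 26.6, and at 24.5 and 35.1 FPKM. The nitrate transporter NRT1.1 was at 37.1 and 34.2 FPKM and its partner protein NRT3.1 at 29.5 and 26.9 FPKM, and so uptake and reduction genes did not share a direction. Of 8 tested sulfur deficiency genes, 6 were higher (median 0.18), with LSU1 at 5.07 and 10.2 FPKM and SDI1, a repressor of glucosinolate synthesis, at 2.53, 8.11 and 4.80 FPKM. The more abundant LSU2 (45.2 and 35.8 FPKM) and APR2 (165 and 146 FPKM) were lower. The summed level of the 13 listed sulfur genes was 401 FPKM at 0 s and 399 at 60 s. Among 6 tested phosphate status genes, SPX1, a phosphate sensor, was lower at 16.8, 11.4 and 8.79 FPKM, as was the acid phosphatase PAP17 at 16.1, 12.2 and 11.3 FPKM, while the other 4 had ratios from -0.07 to 0.28.

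Iron deficiency genes were lower together. Of the 13 listed, all passed the level limit, 12 were lower and 1 was higher, and the median log2 ratio was -0.45. Only 2 of them, IMA3 and IMA1, were at least 1.5-fold lower. IMA3, a small peptide that signals iron shortage, stood at 627 FPKM at 0 s, 369 at 20 s and 404 at 60 s, on a locus that overlaps another gene. IMA1 (AT1G47400) was at 260, 181 and 169 FPKM and IMA2 at 303, 218 and 221 FPKM. The peptides were thus lower at both later exposures, with little between 20 s and 60 s. Among the bHLH transcription factors of iron deficiency, BHLH038 was at 86.0, 48.5 and 59.7 FPKM, BHLH100 at 179, 119 and 126 FPKM, and BHLH039 at 39.6, 25.2 and 28.0 FPKM. BHLH101 was the exception, at 21.3, 18.0 and 23.1 FPKM. NAS4, an enzyme that makes the metal chelator nicotianamine, stood at 95.9, 71.4 and 63.9 FPKM, the ubiquitin ligase BTS at 167, 125 and 126 FPKM, and the iron transporter OPT3 at 239, 205 and 206 FPKM. In the same samples FER1, a ferritin that stores iron, was at 11.6, 18.8 and 16.1 FPKM, also on an overlapping locus. FER4 was at 16.0 and 18.9 FPKM, while FER3 was lower at 49.4 and 43.3 FPKM. The summed level of the 13 genes was 2250 FPKM at 0 s, 1569 at 20 s and 1619 at 60 s.

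Genes of the salicylic acid pathway, which drives immunity against biotrophic pathogens, were lower at 60 s. Of 21 tested members, 18 were lower and 3 higher, with a median log2 ratio of -0.25, and 1 was past 1.5-fold. That gene, NIMIN-2, encodes a partner of the receptor NPR1 and stood at 37.1, 34.1 and 18.23 FPKM. DMR6 and DLO1, hydroxylases that inactivate salicylic acid, were at 177, 170 and 122 FPKM and at 50.0, 57.7 and 34.8 FPKM. PBS3, an enzyme of salicylic acid synthesis, was at 12.8, 15.5 and 8.86 FPKM, and EDS5, which exports its precursor from the chloroplast, at 13.3, 15.6 and 9.80 FPKM. ICS1, the first committed enzyme, was at 33.0, 39.2 and 26.9 FPKM. DLO1, PBS3, EDS5 and ICS1 were thus highest at 20 s and lowest at 60 s. The list median of 20 s against the same 0 s column was 0.23. The output genes PR1 (152, 264 and 149 FPKM) and PR2 (245, 375 and 234 FPKM) were close at 0 s and 60 s. PR5, also an output gene, was lower at 60 s, at 244, 352 and 206 FPKM (log2 ratio -0.25). PR1, PR2 and PR5 were all highest at 20 s. Outside the list, WRKY54 and WRKY46, transcription factors of the same defence network, were at 43.4, 33.6 and 26.1 FPKM and at 23.4, 21.9 and 14.1 FPKM. NUDT6, a nudix hydrolase, was at 41.0, 41.9 and 25.9 FPKM, and NAC090 at 12.1, 14.5 and 6.83 FPKM.

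The PDF1 defensins, small antifungal proteins, did not share a direction. Of 7 listed, 5 passed the level limit and were at least 1.5-fold lower, with a median log2 ratio of -1.18, the lowest of the 61 lists with at least 3 tested members. The other 2 were under the limit and higher at 60 s, PDF1.1 at 0.688, 0.779 and 5.06 FPKM and PDF1.4 at 0.899, 1.17 and 2.11 FPKM. The 5 had low levels, from 5.89 to 14.9 FPKM at 0 s, and 4 of them, all but PDF1.2, were under 5 FPKM at 60 s and passed the limit only through the earlier exposures, so their count and median are no support for a direction of the family. PDF1.3 stood at 11.3, 7.35 and 2.92 FPKM. For PDF1.2 the levels were 14.9, 13.2 and 6.01 FPKM, and PDF1.5 had 5.89, 7.78 and 3.28 FPKM. PDF1.2c was at 6.97, 6.13 and 2.49 FPKM. The copies are nearly identical and can share reads, so their separate values are uncertain. On the coordinates of the deposited table (TAIR9), PDF1.3 lies on chromosome 2 from 11087348 to 11087944 next to PDF1.2b, which ends at 11089597, and PDF1.2 lies on chromosome 5 from 17907069 to 17907598 next to PDF1.2c, which ends at 17909507. These were the only 2 pairs of neighbouring tested genes that were both at least 1.5-fold lower, and 8 pairs were both at least 1.5-fold higher. One such pair was IAA14 and IAA1 on chromosome 4. No run of 3 or more was found in either direction.

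Several of the other genes among the 30 lowest are listed in the reference annotation only as uncharacterized proteins. AT3G01345 had the lowest ratio, at 17.5, 5.31 and 4.86 FPKM. AT5G36920 was at 8.45, 7.603 and 3.36 FPKM, AT3G44450 at 54.3, 32.5 and 29.2 FPKM and AT5G57080 at 16.7, 8.58 and 8.93 FPKM. Thus AT3G01345, AT3G44450 and AT5G57080 were lower already at 20 s. RLP38, a receptor-like protein, stood at 19.5, 14.2 and 11.1 FPKM, and ERF15, an ethylene response factor, at 13.3, 6.35 and 8.18 FPKM. CP1, a calcium-binding protein, was at 46.8, 28.2 and 29.7 FPKM. AT2G44940, of the same DNA-binding class as ERF15, was at 13.2, 6.55 and 7.92 FPKM, and the defensin-like AT1G13609 at 115, 70.6 and 74.98 FPKM. The other 4, AT4G26055, AT3G27540, AT5G22520 and AT1G13470, had log2 ratios from -0.78 to -0.60. As with all tested defensins but PDF1.2, AT3G01345, AT5G36920, AT4G26055, AT3G27540, BBX30 and ELIP1 were under 5 FPKM at 60 s. These genes passed the level limit only through exposures where they were higher, so their place among the 30 is no support for a direction.

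**Figure D4:**
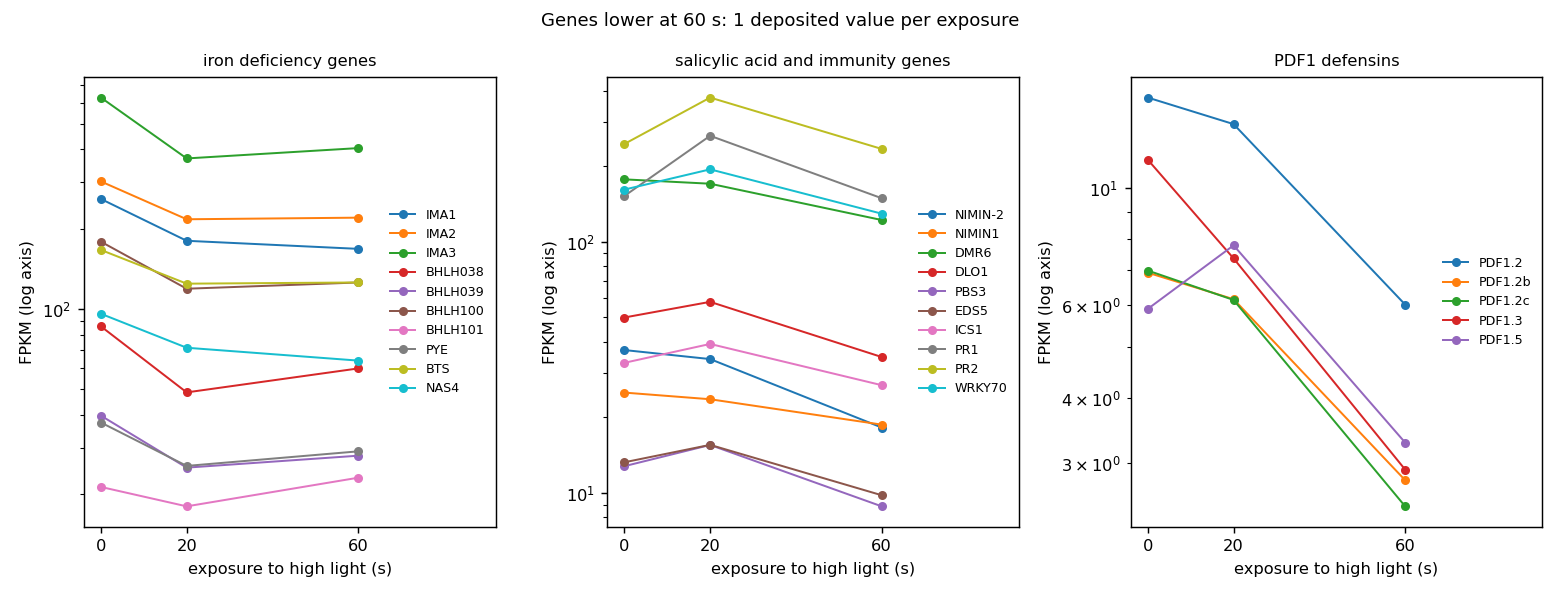
FPKM (vertical log axis) at 0, 20 and 60 s of high light (horizontal axis, seconds) is drawn for 10 iron deficiency genes, 10 salicylic acid and immunity genes and the 5 PDF1 defensins past the level limit, with 1 deposited value per point and no error. The iron deficiency lines other than BHLH101 lie below their 0 s level at both 20 s and 60 s, most salicylic acid lines peak at 20 s and end below their start, and the lines of the 5 tested defensins are lowest at 60 s.

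Hormone and growth genes had smaller differences, most of them upward. Over all tested genes, 54.6% were higher by any amount and the median log2 ratio was 0.01. Among the jasmonate genes, 11 of 13 synthesis genes were higher (median 0.16), led by AOC1, an allene oxide cyclase, at 13.7, 22.6 and 28.4 FPKM. All 7 tested JAZ repressors were higher (median 0.30), with JAZ3 at 9.35, 14.7 and 16.8 FPKM and JAZ9 at 70.5, 98.7 and 102 FPKM. JOX2, a jasmonate oxidase, was at 3.38, 8.52 and 7.92 FPKM. In the abscisic acid group, all 5 tested phosphatases of the PP2C class were higher by any amount, with PP2CA at 29.1, 43.2 and 44.7 FPKM. Of 10 cold and drought proteins of the LEA class, 9 were higher, with the dehydrin RAB18 at 10.9, 8.86 and 15.9 FPKM. P5CS1, the rate-limiting enzyme of proline synthesis, stood at 57.0, 48.4 and 94.4 FPKM. RAB18 and P5CS1 were thus lower at 20 s and higher at 60 s than at 0 s.

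Among growth regulators, 13 of 16 tested Aux/IAA repressors of auxin signalling were higher (median 0.20), and IAA14 (8.06, 8.38 and 13.2 FPKM) and IAA1 (11.6, 12.1 and 18.4 FPKM) were past 1.5-fold. The counts in this group, too, stand beside 54.6% of all tested genes higher by any amount. Of 11 SAUR growth genes, 10 were higher at 60 s than at 0 s, for example SAUR67 at 16.4, 14.6 and 23.2 FPKM, although SAUR20 was at 16.1 and 15.0 FPKM. Of 8 brassinosteroid genes, 7 were higher, with the transcription factors BEE3 at 3.04, 5.38 and 7.88 FPKM and BES1 at 69.4, 69.1 and 96.8 FPKM. All 9 tested PIF and shade genes were higher (median 0.40), including PIF4 at 28.7, 28.6 and 40.8 FPKM and PAR1 at 5.09, 7.62 and 8.87 FPKM. BES1 and PIF4 were nearly the same at 0 s and 20 s. All 16 tested aquaporins, which are water channels, were higher by any amount (median 0.29), and PIP2;3 alone was past 1.5-fold, at 16.0, 25.3 and 25.5 FPKM. More abundant members were TIP1;2 at 815, 853 and 1005 FPKM and PIP2;1 at 550, 533 and 680 FPKM.

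Genes of the photosynthetic machinery differed by part. By any amount, 54.6% of all tested genes were higher and 45.4% lower. The 9 major light-harvesting genes were all higher, with a median log2 ratio of 0.31, which was 0.18 after quantile normalization of the 3 columns. LHCB1.5 was at 4831, 4718 and 6112 FPKM and LHCB3 at 3072, 2874 and 3573 FPKM. LHCB1.3 was listed at 0, 15970 and 18990 FPKM and gives no fold. It is counted among the 9 and in their median, though it passed the level limit only through the later exposures. In the restricted set, 6 major light-harvesting genes remained, with a median of 0.29. All 12 photosystem I subunit genes were higher (median 0.13, and 0.02 after quantile normalization), and 10 of 11 photosystem II subunit genes were higher, with a median of 0.09 that turned to -0.04 after quantile normalization. In contrast, 13 of 17 Calvin cycle genes were lower (median -0.08, and -0.12 after quantile normalization), with the Rubisco small subunit RBCS1B at 1482, 1276 and 1197 FPKM. HEMA1, which starts chlorophyll synthesis, stood at 100, 134 and 149 FPKM, apart from the other 17 tested genes of that pathway, whose ratios lay between -0.14 and 0.27. ELIP1, an early light-induced protein, was lower at 8.56, 8.41 and 4.96 FPKM, and LHCB4.3 at 76.6, 90.3 and 54.5 FPKM. Among B-box proteins of light signalling, BBX32 (13.1, 7.58 and 7.05 FPKM) and BBX30 (8.71, 2.73 and 4.82 FPKM) were lower and BBX27 (30.3, 40.2 and 49.7 FPKM) was higher, with a median of 0.04 over 10 members. The 19 tested clock genes had a median of 0.08, from PRR5 at 10.5 and 9.45 FPKM to RVE4 at 67.4 and 83.1 FPKM.

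Genes known as fast responders did not share a course. Some, such as WRKY18 and DREB26, were near their 0 s level at 60 s while their 20 s values lay apart. CAM2, HSP90.1 and AT3G09440 were instead below their 0 s level at 60 s. Of 14 tested rapid stress transcription factors, 9 were higher at 60 s (median 0.07), and WRKY18 was at 20.3, 45.7 and 19.1 FPKM. DREB26 stood at 1.97, 15.1 and 3.29 FPKM. Among 7 touch and calcium genes, 6 were lower at 60 s (median -0.23), such as the calmodulin CAM2 at 94.4, 103 and 71.0 FPKM, and TCH4, a cell wall enzyme, was higher at 29.0, 125 and 42.8 FPKM. EXORDIUM family genes, linked to cell expansion, were higher in 6 of 6 tested cases (median 0.44), with EXO at 34.9, 111 and 44.4 FPKM. Of 5 tested heat shock genes, 4 were lower, led by HSP90.1 at 14.5, 10.3 and 10.6 FPKM. AT3G09440, a heat shock protein of the Hsp70 family, was at 237, 143 and 143 FPKM and was among the 30 lowest genes.

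**Figure D5:**
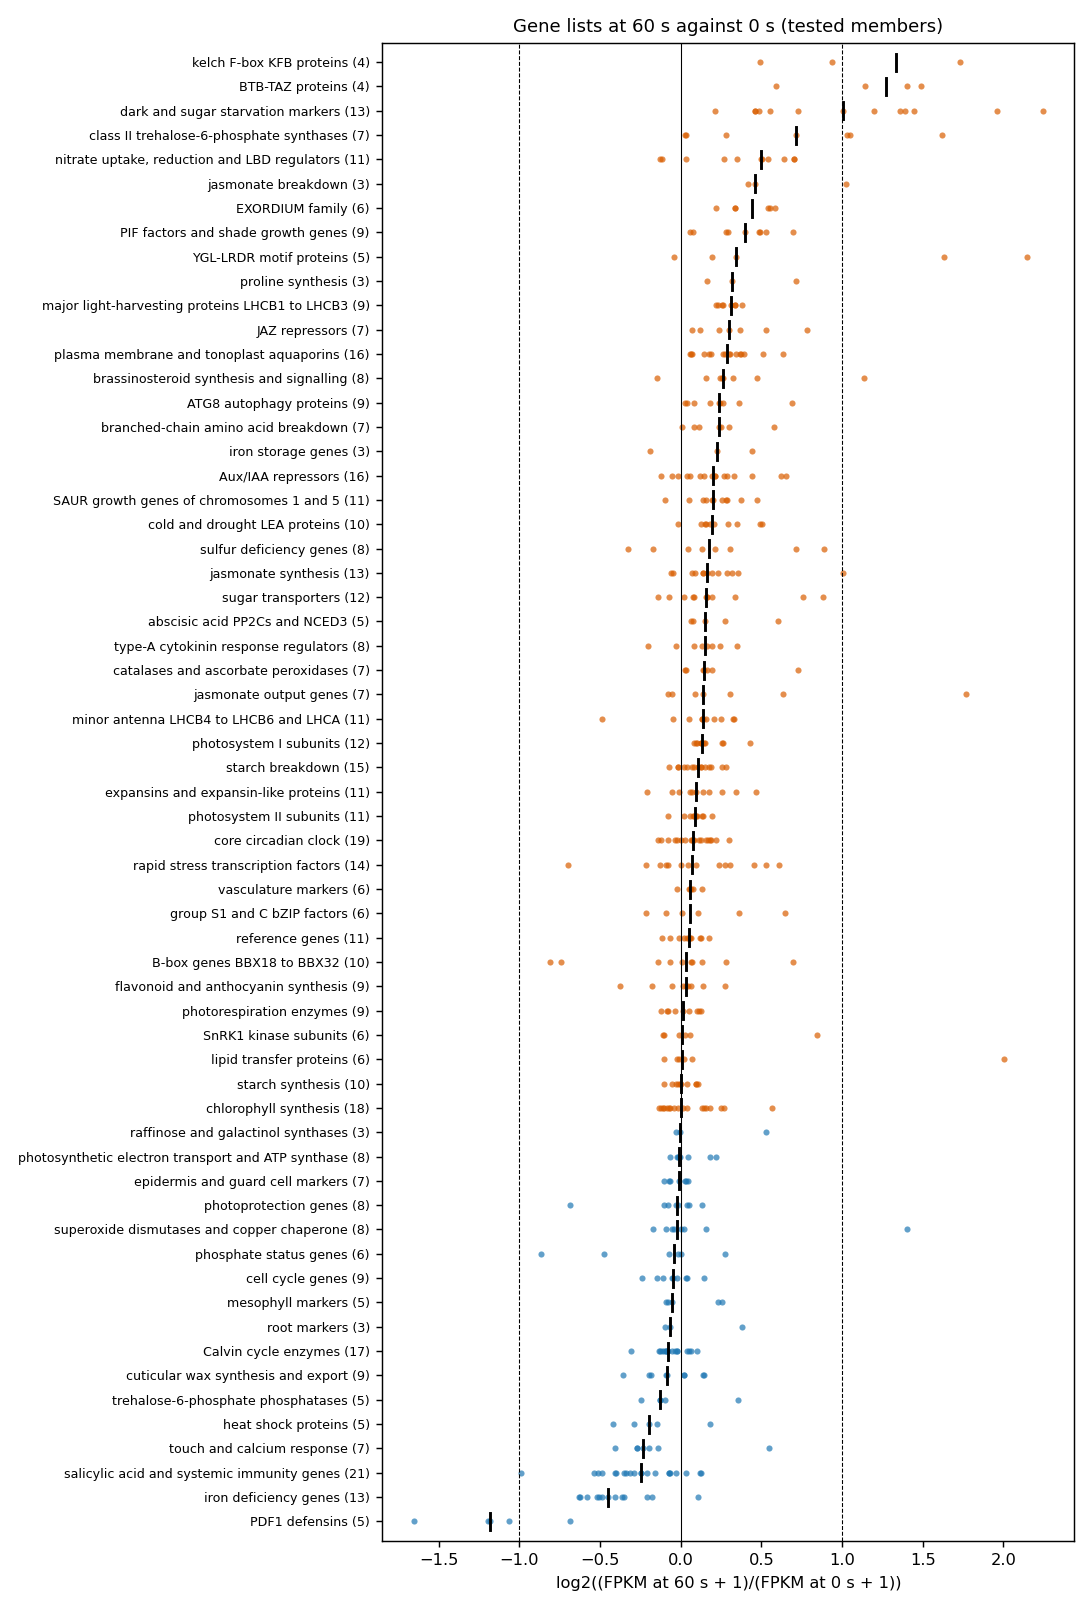
Each dot is the log2 ratio of 60 s to 0 s (horizontal axis) of a tested member of the gene list named on the vertical axis, with the number of tested members in brackets, black bars at list medians over all tested members and dashed lines at 2-fold. Members listed at 0 FPKM at 0 s are not drawn, KFB, BTB-TAZ and starvation lists stand at the top, and PDF1 defensins, iron deficiency and salicylic acid lists at the bottom.

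A grouping by shared description in the reference annotation, made without these lists, covered 472 families with at least 5 tested genes. The highest median, 0.69, was that of 5 PLATZ proteins, zinc-dependent DNA-binding proteins, all of them higher and 3 past 1.5-fold. AT1G76590 was at 6.57, 9.26 and 13.0 FPKM, AT1G21000 at 23.4, 30.5 and 42.4 FPKM and AT1G32700 at 40.5, 54.9 and 66.2 FPKM. Next came 6 wound-responsive proteins (median 0.35), of which AT4G05070 was at 108, 189 and 221 FPKM, and 5 mannose-binding lectins (0.35), among them JAL33 at 4.11, 5.46 and 6.36 FPKM. Of 5 CONSTANS-like genes, relatives of a flowering regulator, 4 were higher, with COL5 at 58.9, 69.3 and 83.6 FPKM. All 5 acyl-CoA oxidases, enzymes of fatty acid breakdown in peroxisomes, were higher by any amount (0.23), from ACX3 (31.4 and 32.8 FPKM) to ACX2 (26.4 and 34.5 FPKM). Among 14 polyketide cyclase family proteins, 11 were higher, and the abscisic acid receptor PYL5 was at 5.34, 12.3 and 8.32 FPKM. At the other end, next to the 5 tested defensins, stood 5 Hsp70 proteins (median -0.38), all lower, with the endoplasmic reticulum chaperone BIP2 at 179, 172 and 137 FPKM. Chitinases followed at -0.26, with AT2G43590 at 12.6, 13.8 and 7.51 FPKM. All 5 tested genes of the family described as glutathione S-transferase were lower (-0.22), including GSTF7 at 127, 152 and 97.4 FPKM and GSTF6 at 192, 223 and 152 FPKM, and so were 5 Brix domain proteins of ribosome assembly (-0.20). Of 9 SPFH/Band 7 membrane proteins, 8 were lower, with HIR2 at 138, 214 and 118 FPKM. These families were ranked by the median itself, so their positions are a description.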

How the data were processed

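RNA of Arabidopsis shoots was sequenced by the authors, and the table they deposited gives 1 FPKM value for each gene at each exposure. TopHat, Bowtie and Cufflinks, and the TAIR9 build, are named per the submitters' processing notes. Not given in the sources used here are their versions, how the 3 pools were combined, strand handling and how exposures were normalized to each other. Such an estimator divides reads between gene copies and can fail on short or abundant genes, so an exact 0 is called listed at 0 and the separate values of close copies (such as LHCB1, PIP2, SAUR and defensin genes) are uncertain.

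The 3 columns were matched to exposures by name, with 0 columns unmapped. Ratios used a pseudocount of 1 FPKM and a mean of at least 5 FPKM, and understate differences of low genes. With 1 value per exposure no test was made, and the limits of 2-fold and 1.5-fold describe the table. The comparison and the 63 gene lists (673 entries, 670 of them in the table and the other 3 not analysed here) were chosen with earlier results of these data known. Of the entries, 640 carry a name or locus code of the reference annotation.

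Genes were named from a rule, namely the 30 highest and 30 lowest of the restricted set, the 2 highest and 2 lowest of each list with every member of lists of at most 5, the 10 highest and 10 lowest families, and runs of neighbours. Of the list and family genes it gives, a part is described, and further list members were named after their values were seen. Names, types, lengths and upstream sequences came from RefSeq TAIR10.1, which holds 32690 of the 33473 identifiers, while gene coordinates are those deposited, moved by 1 so that counting starts at 1. Calculations were tested on simulated data. Tools were matplotlib 3.10.9, numpy 2.4.6, pandas 2.3.3 and scipy 1.17.1 under Python 3.11.15.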

Additional observations from a re-analysis of the deposited data

How the results depend on the processing

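The counts depended most on the minimum level and on the restriction of the gene set. With a pseudocount of 5 FPKM, 49 genes were higher by 2-fold or more and 149 by 1.5-fold or more. With a mean of at least 20 FPKM, 44 genes were 2-fold higher and 9 lower, and 120 were 1.5-fold higher and 22 lower. In the restricted set 49 were 2-fold higher and 6 lower, and 33 were 1.5-fold lower. The cause was not tested beyond the smaller number of genes compared in the last 2 settings. A pseudocount of 0.1 FPKM, a mean of at least 1 FPKM, centring on the median and quantile normalization left each count within 1.5 times, and higher counts exceeded lower ones in every setting. Of 409 recomputed list medians, 24 moved by 0.1 or more, and of 3766 recomputed gene ratios, 143 did. Under a pseudocount of 5 FPKM, 6 medians and 81 ratios moved, and the median of the tested defensins became -0.68. Each other level limit moved 5 medians, with class II trehalose-6-phosphate synthases at 1.05 and rapid stress factors at 0.28 for a mean of at least 20 FPKM, and jasmonate breakdown at 1.02 for at least 1 FPKM. Quantile normalization moved 4, of which photosystem II subunits went from 0.09 to -0.04. Other motif settings were chosen after seeing the data. With a 2-fold limit, ACGTG was found upstream of 39.1% of the genes higher and TATCCA upstream of 46.9%. In 250 bases TATCCA was at 25.3% of genes higher and 14.8% of tested genes, and ACGTG at 36.2% and 23.1%. In 1000 bases they were at 56.1% and 44.4%, and at 67.4% and 54.5%. No paired analysis was possible because the table has 1 value per exposure and its columns carry no replicate, and for the same reason no replicate could be left out.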
